A study of Mus musculus with 7 samples.

Results

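The 6 genes described here are the transcription factors Gli1, Gli2 and Gli3, the receptor Ptch1, the signal transducer Smo and the ligand-binding inhibitor Hhip of the Hedgehog pathway. They were chosen by name, and all 6 were found among the 56854 gene identifiers that all count files share. The libraries were made from whole shoulder joints of 7 mice, 1 library per mouse, 2 weeks after the supraspinatus tendon of the left shoulder was repaired. The mice were wild type (n = 3) or Tnc-/- (n = 4), the latter lacking the matrix glycoprotein Tenascin C, and all 7 had the same surgery, so no unoperated joint enters any comparison. Age, sex, strain and the design of the Tnc-/- allele are not given in the sources used here. Libraries are named by genotype and the replicate number in their titles, and values given without a library number follow that order.

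Hedgehog signalling works by release of a brake. Without ligand the receptor Ptch1 holds Smo inactive, and Gli2 and Gli3 are processed in the primary cilium, Gli3 mostly into a repressor. When a ligand (Shh, Ihh or Dhh) binds Ptch1, Smo becomes active and Gli proteins switch on target genes, among them Gli1, Ptch1 and Hhip, so the levels of these 3 transcripts are in common use as readouts of the pathway. At the enthesis, where tendon joins bone, Gli1-expressing cells build and mineralise the fibrocartilage, and they also take part in healing there.

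The question was whether these genes differed between repaired joints of the genotypes. Hhip and Gli3 were lower in Tnc-/- at an adjusted p under 0.05, Ptch1 was just short of that threshold, and Gli1, Gli2 and Smo were not called. Only Hhip and Ptch1 had all 4 Tnc-/- libraries below all 3 wild-type libraries. These are 2 of 6 genes called and 2 of 6 without overlap, near the 29% and 35.1% over all tested genes, so the counts set these genes apart in neither respect. The call of Gli3 came from high values in wild-type libraries 2 and 3. Levels are in CPM, a count divided by the TMM-scaled library size and expressed per 1e6 counts. Log2 fold changes are Tnc-/- minus wild type, and adjusted p-values are from edgeR's quasi-likelihood test with Benjamini-Hochberg adjustment over all 17791 tested genes.

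Features of the libraries touch every value below. The libraries held 13464057 to 18503833 gene counts in wild type and 19250322 to 28191101 in Tnc-/-. Their TMM factors were 1.01 to 1.15 and 0.914 to 0.960. Neither depth nor scaling factor overlapped between the genotypes. The targeted gene Tnc was at 292 to 437 CPM in wild type and 33.4 to 54.97 CPM in Tnc-/- (log2 fold change -3.08, SE 0.21; edgeR adjusted p of 2.8e-04). Wild-type libraries 2 and 3 stood apart. Odorant, vomeronasal and other chemosensory receptor genes (2010 in all), which a joint is not known to use, summed to 89.1 CPM in wild-type library 1, 1399 and 982 CPM in libraries 2 and 3, and 36.5 to 43.9 CPM in Tnc-/-. Long genes were also higher in these libraries. Among tested genes spanning 100 to 300 kb from first to last base, the median difference from library 1 was 1.06 log2 units in library 2 and 0.80 in library 3. For genes spanning up to 10 kb it was -0.31 and -0.37. The wild-type and Tnc-/- files also differ in form. The wild-type files list 56980 gene identifiers without symbols or summary rows, and the Tnc-/- files 56941 with both, 126 and 87 of them in 1 set alone. Whether they were counted in the same way is not given in the sources used here, and any such difference cannot be told apart from genotype. Nothing in the labels says that the animals of a group came from separate litters or days, and p-values measure the spread between these mice alone.

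The counts also depend on whether a gene shares its place with another. Chemosensory receptors left out, of 1165 protein-coding genes lying wholly inside the span of another gene in GENCODE M21, 1038 (89.1%) had 0 counts in every library. Of 19094 others it was 1633 (8.55%). The Tnc-/- files list 11.4 to 11.6% of their reads in a row for reads that match several genes. This concerns Gli1 among the 6 genes, since 79.8% of its span is shared with Arhgap9 and the antisense gene Gm47200, and 37.2% of its exon bases lie outside both. Less than 2% of the span was shared for the others: 0.037% for Gli2, 0.27% for Gli3, 1.47% for Ptch1, 1.41% for Smo and 0.19% for Hhip. The level of Gli1 is therefore uncertain beside that of the other genes.

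**Figure D1:**
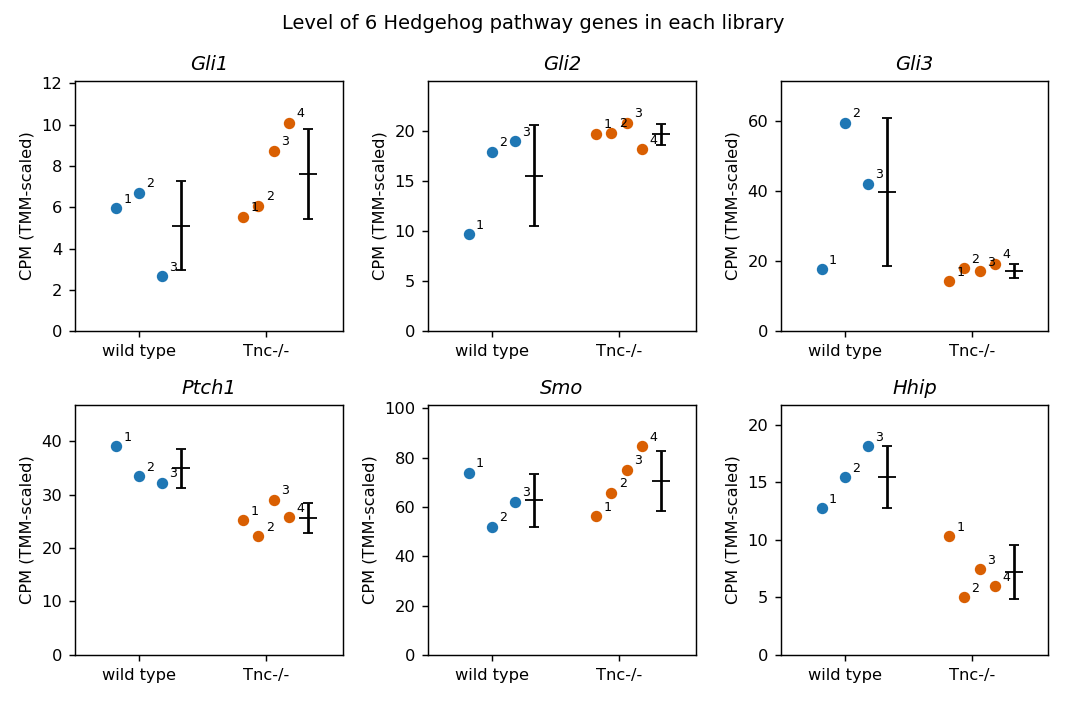
CPM (vertical axis, from 0) of each gene in wild-type libraries 1 to 3 (blue) and Tnc-/- libraries 1 to 4 (orange), with the library number beside each point and the mean ± SD as a black bar. Hhip and Ptch1 are the genes in which the groups do not overlap; Gli3 in wild-type library 1, at 17.7 CPM, lies among the Tnc-/- values.

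Hhip (ENSMUSG00000064325) encodes a membrane protein that binds Hedgehog ligands and so limits their reach. It was at 12.7, 15.4 and 18.1 CPM in wild type and at 10.3, 5.01, 7.45 and 5.96 CPM in Tnc-/- libraries 1 to 4. The groups did not overlap, the closest being Tnc-/- library 1 and wild-type library 1. The mean fell from 15.4 ± 2.69 CPM (SD, n = 3) to 7.19 ± 2.32 CPM (SD, n = 4). The log2 fold change was -1.10 (SE 0.31; 95% interval -1.80 to -0.39) with an edgeR adjusted p of 0.03. Of all tested genes 18.7% were called lower, and in 17.4% Tnc-/- was lower without overlap. An exact two-sided permutation test gave p = 0.0571, the smallest this design allows. With wild-type library 1 alone as the control, the spread being taken from the Tnc-/- libraries, the log2 fold change of Hhip was -0.82 and no longer called (edgeR, adjusted p = 0.163). With the receptor-gene covariate it was -0.71 (edgeR, adjusted p = 0.437). The call was also lost without any one of wild-type libraries 2 and 3 and Tnc-/- libraries 2, 3 and 4, with adjusted p (edgeR) up to 0.114.

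Ptch1 (ENSMUSG00000021466), the receptor that restrains Smo and is itself induced by the pathway, was at 39.02, 33.4 and 32.3 CPM in wild type. In Tnc-/- libraries 1 to 4 it was at 25.2, 22.2, 29.1 and 25.7 CPM. The groups did not overlap, and wild-type library 1, which had the low receptor-gene signal, held the highest value. The means were 34.9 ± 3.61 CPM (SD, n = 3) and 25.6 ± 2.80 CPM (SD, n = 4). The log2 fold change of -0.45 (SE 0.15; 95% interval -0.79 to -0.11) had an edgeR adjusted p of 0.0531, so Ptch1 was not called. The exact two-sided permutation p was again 0.0571. Ptch1 passed the threshold under 6 of the 19 alternatives, with log2 fold changes of -0.70 to -0.48. It was below 0 in all 19, from -0.70 to -0.27, with the value nearest 0 in the fit without wild-type library 1. With that library alone as the control, Ptch1 was at -0.62 (edgeR, adjusted p = 0.0738).

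Hhip and Ptch1 are both targets that Gli proteins bind, and both were lower in every Tnc-/- library, so the 250 bases before their RefSeq start (GRCm38.p6, minus strand, written 5′ to 3′) are shown, with each CG pair in capitals. Neither stretch overlaps an exon in GENCODE M21.
Ptch1, chr13:63565736-63565985: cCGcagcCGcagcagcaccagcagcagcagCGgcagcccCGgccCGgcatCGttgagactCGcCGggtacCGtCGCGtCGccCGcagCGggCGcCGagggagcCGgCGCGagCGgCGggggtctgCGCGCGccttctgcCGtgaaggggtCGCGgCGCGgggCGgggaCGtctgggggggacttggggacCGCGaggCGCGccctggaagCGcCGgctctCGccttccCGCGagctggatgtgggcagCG
Hhip, chr8:80058009-80058258: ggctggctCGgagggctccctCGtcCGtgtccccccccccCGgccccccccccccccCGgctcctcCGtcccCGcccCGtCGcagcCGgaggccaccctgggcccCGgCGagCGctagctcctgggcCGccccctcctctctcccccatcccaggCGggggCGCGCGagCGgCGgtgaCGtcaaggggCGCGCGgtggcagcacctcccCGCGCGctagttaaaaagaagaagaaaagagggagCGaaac

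The Ptch1 stretch holds 41 CG pairs and the Hhip stretch 28, where the median over the 27025 genes in the promoter table, taking 1 promoter per gene, is 6 in the same 250 bases. The Gli binding motif GACCACCCA, searched on both strands, was in 0 of the 5 windows of 300 bases found for these genes (Gli2, Gli3, Ptch1, Smo and Hhip; Gli1 had no entry). Of the 27025 promoters, 66 (0.244%) held it. Its shorter core CCACCCA, which overlaps it, was in 0 of the 5 and in 9.32% of the 27025. These letters are not in these windows, which says nothing of sites elsewhere.

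Gli1 (ENSMUSG00000025407), the activator that the pathway itself induces, had 111, 101 and 44 counts in wild-type libraries 1 to 3 and 150, 109, 156 and 193 in Tnc-/- libraries 1 to 4. Its levels were 5.96, 6.71 and 2.67 CPM in wild type and 5.55, 6.07, 8.73 and 10.1 CPM in Tnc-/-. The groups overlapped. Wild-type library 3 was the lowest, with an exact 95% Poisson interval of 1.94 to 3.59 CPM that covers counting error only. The log2 fold change of 0.57 (SE 0.43; 95% interval -0.41 to 1.56) was not called (edgeR, adjusted p = 0.349), and the interval allows changes in both directions. Without wild-type library 3 it was 0.27. Arhgap9, on the opposite strand, had 627, 191 and 311 counts in wild type and 1371, 662, 752 and 817 in Tnc-/-, not scaled for depth. The antisense gene Gm47200 had 20 and 16 counts in wild-type libraries 2 and 3 and 0 in the other 5 libraries. Whether the counting used strand is not given in the sources used here. The part of these neighbours in the Gli1 counts was not tested.

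The induced genes were also compared with each other within a library. The ratio of Gli1 to Ptch1 counts, into which no library scaling enters, was 0.153, 0.201 and 0.0829 in wild type. In Tnc-/- it was 0.22, 0.273, 0.301 and 0.392, above every wild-type library. Gli1 per Hhip count was 0.468, 0.435 and 0.148 in wild type and 0.538, 1.21, 1.17 and 1.69 in Tnc-/-, also without overlap. For comparison, Hhip per Ptch1 count overlapped, at 0.326 to 0.561 in wild type and 0.226 to 0.410 in Tnc-/-. Gli1 per Smo count also overlapped, at 0.0431 to 0.129 and 0.0923 to 0.119, as did Gli2 per Gli1 count, at 1.63 to 7.09 and 1.80 to 3.56. Of 7 ratios computed, 4 did not overlap, and the share over all pairs of genes was not computed. Ratios are given as descriptions, without a test. Hhip and Ptch1 were themselves lower in Tnc-/- without overlap, which enters every ratio over them. In wild-type library 2 the receptor-gene rate set out below came to 56.2% of the Hhip level and 16.9% of that of Gli1. The part of the long-gene signal in these ratios was not tested.

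Smo (ENSMUSG00000001761), the transducer that Ptch1 restrains, was the most abundant of the 6 per kb of exon outside other genes' spans. It was at 73.9, 52.03 and 62.1 CPM in wild type and at 56.3, 65.8, 75.2 and 84.6 CPM in Tnc-/- libraries 1 to 4. The groups overlapped across most of their range. The log2 fold change of 0.17 (SE 0.18; 95% interval -0.23 to 0.57) was not called (edgeR, adjusted p = 0.506), and its sign turned with the scaling, to -0.069 with library totals. Relative to Smo, Ptch1 was lower in every Tnc-/- library. Ptch1 per Smo count was 0.528, 0.642 and 0.520 in wild type, and 0.448, 0.338, 0.386 and 0.304 in Tnc-/-.

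Gli3 (ENSMUSG00000021318), the main repressor form of the family, was at 17.7, 59.5 and 42.1 CPM in wild type and at 14.4, 17.9, 17.2 and 19.2 CPM in Tnc-/- libraries 1 to 4. The Tnc-/- values lay close together and wild-type library 1 lay among them, while wild-type libraries 2 and 3 were far above. The mean fell from 39.8 ± 21.04 CPM (SD, n = 3) to 17.2 ± 2.07 CPM (SD, n = 4), or -1.21 log2 units (SE 0.35; edgeR, adjusted p = 0.031). The exact two-sided permutation p was 0.171. With wild-type library 1 alone as the control the log2 fold change of Gli3 was -0.046 (edgeR, adjusted p = 0.921), and with the log2 receptor-gene sum as a covariate it was 0.43 (edgeR, adjusted p = 0.478). Leaving out wild-type library 2 gave -0.79, and leaving out any single library other than wild-type library 1 ended the call, with adjusted p (edgeR) from 0.0694 to 0.119. Without wild-type library 1 it was -1.47 (edgeR, adjusted p = 1.5e-05).

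Gli2 (ENSMUSG00000048402), the main activator before Gli1 is induced, was also lowest in wild-type library 1, but there the Tnc-/- values lay with libraries 2 and 3. It was at 9.71, 17.9 and 18.95 CPM in wild type and at 19.8, 19.8, 20.8 and 18.2 CPM in Tnc-/- libraries 1 to 4. The groups overlapped through wild-type library 3 and Tnc-/- library 4. The log2 fold change of 0.34 (SE 0.25; 95% interval -0.22 to 0.90) was not called (edgeR, adjusted p = 0.328; exact two-sided permutation p = 0.114). With wild-type library 1 alone as the control, Gli2 was higher in Tnc-/- by 1.01 log2 units (edgeR, adjusted p = 0.0308), a value that rests on a single wild-type mouse. With the receptor-gene covariate it was 1.28 (edgeR, adjusted p = 0.0549). Other settings took it towards 0, to 0.073 with library totals, 0.057 with TMM factors from genes spanning up to 30 kb and 0.18 without wild-type library 1 (edgeR, adjusted p of 0.865, 0.898 and 0.391).

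The balance of Gli2 and Gli3 within a library did not overlap between the genotypes, wild-type library 1 included. Gli2 per Gli3 count was 0.550, 0.301 and 0.450 in wild type and 1.376, 1.11, 1.21 and 0.946 in Tnc-/-. The means were 0.434 ± 0.125 (SD, n = 3) and 1.16 ± 0.181 (SD, n = 4). The part of the long-gene signal in this ratio was not tested.

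**Figure D2:**
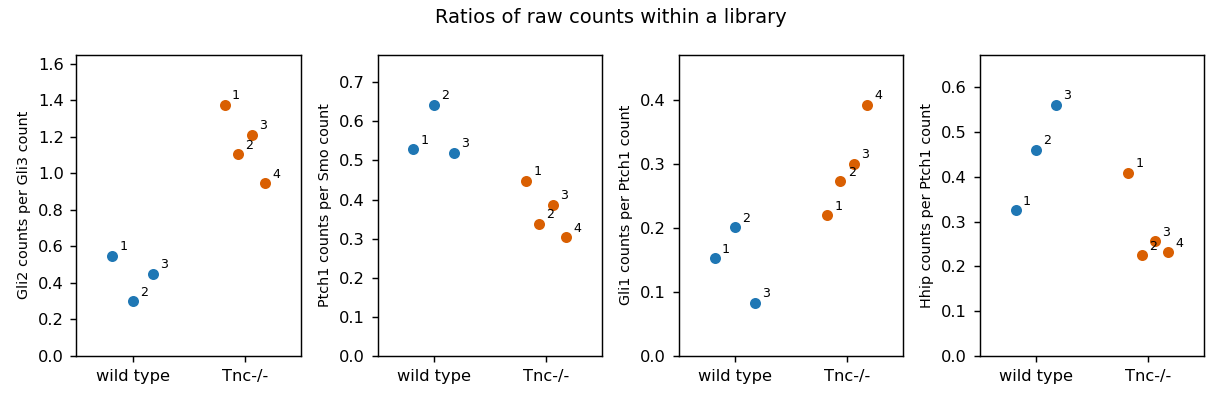
Ratios of raw counts of 2 genes within a library (vertical axes, from 0) in wild type (blue) and Tnc-/- (orange), with library numbers beside the points. Gli2 per Gli3, Ptch1 per Smo and Gli1 per Ptch1 do not overlap between the genotypes, while Hhip per Ptch1 does, through Tnc-/- library 1 at 0.410.

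The span of the genes was set beside the wild-type differences. Against wild-type library 1, Gli3 was higher by 1.75 log2 units in library 2 and 1.25 in library 3, and Gli2 by 0.88 and 0.96. For Gli3 this was above the difference in 62% and 60% of the tested genes spanning 100 to 300 kb, and for Gli2 in 46.5% and 53.9%. In that class 44.7% of genes were called lower in Tnc-/-, with a median log2 fold change of -0.69. The fold change of Gli3 lay above that of 37.3% of the class, and that of Gli2 above 92.3%. Hhip, spanning 92.2 kb, was higher by 0.28 and 0.51, and Ptch1, spanning 65.3 kb, was lower by 0.22 and 0.27. Among genes of 30 to 100 kb, Ptch1 ranked above 31.6% and 22% and Hhip above 53.4% and 64.1%. Smo (25.9 kb) was lower by 0.50 and 0.25. Gli1 (12.1 kb) was higher by 0.17 in library 2 and lower by 1.13 in library 3, where 4.29% of genes spanning 10 to 30 kb lay below it.

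**Figure D3:**
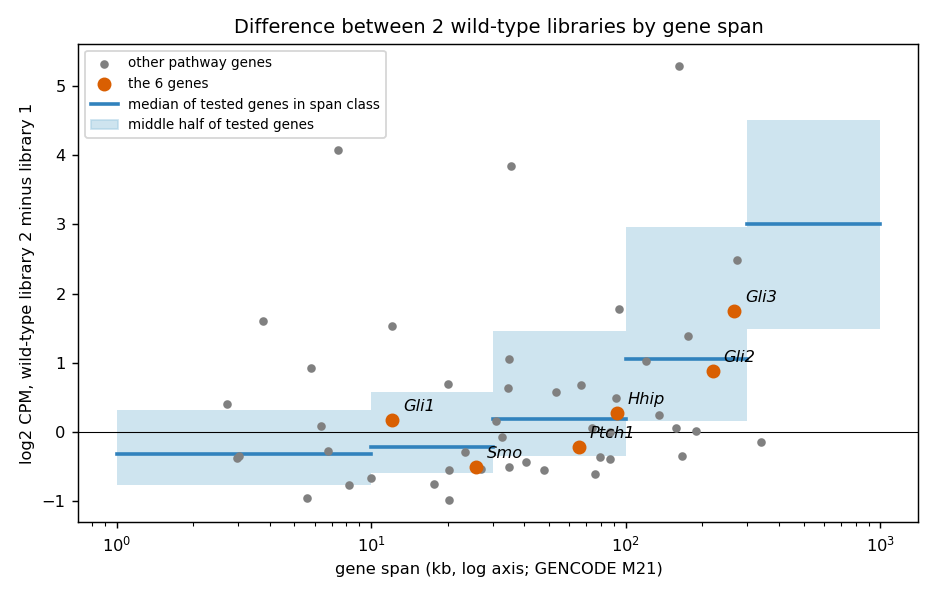
Difference in log2 CPM between wild-type library 2 and library 1 (vertical axis) against gene span in kb (log axis) for the 6 genes (orange) and other pathway genes (grey). Blue lines are medians and shaded boxes the middle 50% of tested genes in each span class; Gli2 and Gli3 lie within the box for genes of 100 to 300 kb.

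The receptor genes, 2007 of which have a span in GENCODE M21, held 0.0941 CPM per kb of span in wild-type library 2, 0.066 in library 3, 0.00595 in library 1 and 0.00246 to 0.00296 in Tnc-/-. At that rate the span of Gli3 would hold 25.1 CPM in wild-type library 2 and 17.6 in library 3, or 42.1% and 41.8% of its level there. For Hhip it would be 8.67 and 6.08 CPM (56.2% and 33.6%), and for Ptch1 6.14 and 4.31 CPM (18.4% and 13.4%). With these amounts taken off in every library, the groups overlapped for both. Hhip was then at 12.2, 6.75 and 12.02 CPM in wild type against 10.05, 4.74, 7.196 and 5.74 CPM in Tnc-/-. Ptch1 was at 38.6, 27.3 and 27.9 CPM against 24.996, 22.03, 28.9 and 25.6 CPM, where wild-type libraries 2 and 3 lay just below Tnc-/- library 3. Gli3 was at 16.1, 34.4 and 24.5 CPM against 13.6, 17.1, 16.5 and 18.6 CPM, with wild-type libraries 2 and 3 still above every Tnc-/- library. For Gli2 the rate gave 20.6 CPM in library 2, more than the 17.9 CPM measured, so it cannot hold evenly for every gene. What was left of Gli2 was 8.41, -2.70 and 4.47 CPM in wild type and 17.7 to 20.2 CPM in Tnc-/-, without overlap. In wild-type library 1 the rate came to 4.31% of the Hhip level and 0.996% of the Ptch1 level. The part of this signal in the differences between genotypes was not tested beyond the fits named here.

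**Figure D4:**
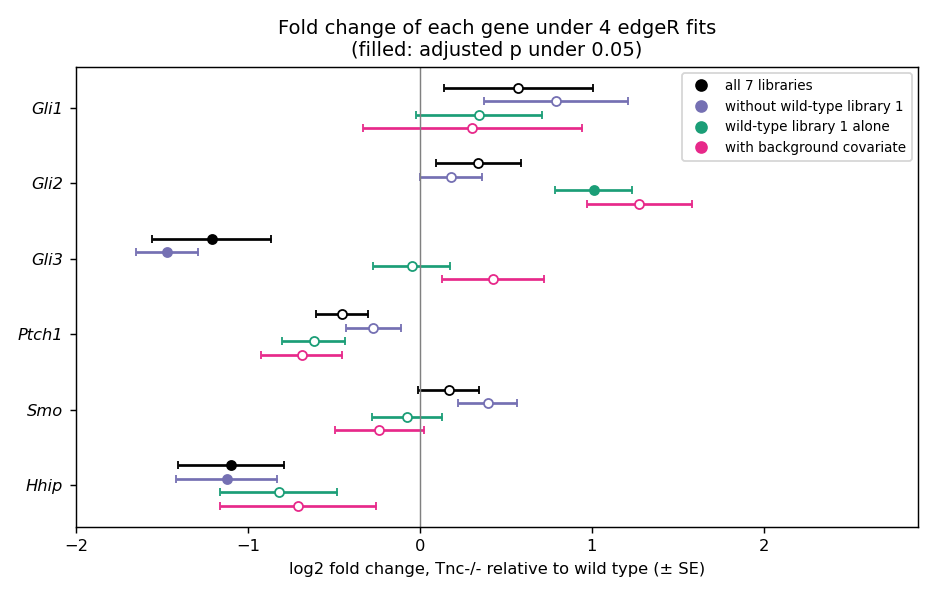
Log2 fold change (horizontal axis, ± SE) of each gene in 4 edgeR fits, with filled points where the adjusted p was under 0.05. Ptch1 and Hhip lie below 0 in all 4 fits, Gli3 moves from -1.21 to 0.43 with the covariate, and Gli2 moves from 0.34 to 1.01 with wild-type library 1 alone.

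Levels of the 6 genes were ordered per kb of exon outside other genes' spans, in CPM per kb. Whether reads were counted over exons alone or over whole spans is not given in the sources used here. An order per kb of span was not computed, so the order holds for this length alone. In Tnc-/- the order was Smo (12.5 ± 2.17, SD, n = 4), Gli1 (4.10 ± 1.17), Gli2 (2.86 ± 0.158), Gli3 (1.83 ± 0.220), Ptch1 (1.80 ± 0.197) and Hhip (0.807 ± 0.260). Gli3 and Ptch1 do not differ beyond their spread, and the place of Gli1 is not settled. Over all its exon bases Gli1 was at 1.52 CPM per kb in Tnc-/-, below Ptch1, and at 1.19 CPM per kb in wild-type library 1, below all of the other 5. In wild-type library 1 the order was Smo at 13.1, Gli1 at 3.21, Ptch1 at 2.75, Gli3 at 1.88, Hhip at 1.43 and Gli2 at 1.41 CPM per kb.

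Of the 47 other pathway genes listed by role, 44 were tested and 13 were called, 6 higher and 7 lower in Tnc-/-, against 10.3% of all tested genes called higher and 18.7% lower. Their median log2 fold change was -0.025, beside -9.0e-04 over all tested genes. With library totals as the scaling, which moves the median of all genes to -0.24, the split was 2 higher and 12 lower. This list was drawn up with earlier results of these data known.

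Among ligands, Ihh, the ligand made by prehypertrophic chondrocytes, was at 4.29, 4.59 and 4.56 CPM in wild type and 3.18, 3.18, 5.71 and 12.3 CPM in Tnc-/-. It was not called (log2 fold change 0.44, SE 0.54; edgeR, adjusted p = 0.573), and Tnc-/- library 4 was the highest, as it was for Gli1. Without that library the log2 fold change of Ihh turned to -0.16. Tnc-/- library 4 also held the highest levels of the cartilage genes Col2a1 (1380 CPM, against 363 to 1047 in the other Tnc-/- libraries) and Acan (518 CPM against 188 to 229.5). Dhh, the ligand of Schwann cells, was at most 1.59 CPM in any library, and 54.5% of its span is shared with other genes. Shh was listed at 0 in all 7 libraries, but 86.03% of its span is shared with other genes in GENCODE M21. Hhat, which attaches palmitate to the ligands, fell from 9.28, 52.2 and 35.8 CPM to between 6.33 and 8.47 CPM (log2 fold change -2.18, SE 0.47; edgeR, adjusted p = 0.0122). Its span is 275 kb, and with wild-type library 1 alone its log2 fold change was -0.38 (edgeR, adjusted p = 0.43).

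Of 6 receptors and co-receptors, 2 were called, both lower, where 18.7% of all tested genes were. Gpc3, a cell-surface glypican that competes with Ptch1 for ligand, fell from 48.04, 43.6 and 44.8 CPM in wild-type libraries 1 to 3 to 18.6, 23.6, 18.3 and 24.9 CPM in Tnc-/- libraries 1 to 4. The wild-type libraries were close together, library 1 included, and the groups lay far apart. The log2 fold change of Gpc3 was -1.09 (SE 0.16; edgeR, adjusted p = 0.0067). It was called in all 19 alternatives, from -1.34 to -0.96, with adjusted p up to 0.0323. It was the only called gene of the list still called with wild-type library 1 alone (-1.18; edgeR, adjusted p = 0.0102) or with the covariate (-1.22; edgeR, adjusted p = 0.032). Its span is 342 kb, and of the tested genes spanning over 300 kb 78.5% were called lower, with a median log2 fold change of -2.71. Lrp2, a large endocytic receptor, was called lower (edgeR, adjusted p = 0.00766) from 1.13, 48.05 and 39.97 CPM in wild type to at most 0.259 CPM in Tnc-/-, so its level came from wild-type libraries 2 and 3. The co-receptors Cdon (-0.18), Boc (0.062) and Gas1 (0.0069) were not called.

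Of 10 tested activating and ciliary genes 6 were called higher and 2 lower, beside the 10.3% and 18.7% of all tested genes. The genes of this group were listed for a role in activating the pathway or in the cilium. Arrb2, a beta-arrestin that joins active Smo, rose from 45.7 ± 12.5 CPM (SD, n = 3) to 96.8 ± 13.03 CPM (SD, n = 4), or 1.08 log2 units (SE 0.20; edgeR, adjusted p = 0.00816). Grk2, the kinase that phosphorylates active Smo, rose from 113 ± 44.5 to 247 ± 26.3 CPM (1.13, SE 0.24; edgeR, adjusted p = 0.012). Evc and Evc2, which form a scaffold for Smo at the base of the cilium, rose by 0.63 (SE 0.19) and 0.52 (SE 0.16) log2 units, and their partner Iqce by 0.78 (SE 0.19; edgeR, adjusted p of 0.0406, 0.0402 and 0.019). Ulk3, a kinase that acts on Gli proteins, rose by 0.64 (SE 0.21; edgeR, adjusted p = 0.0463). All 6 stayed above 0 in all 19 alternatives, but Arrb2 was called in 17 of them, Grk2 in 15, Iqce in 9, Evc in 4 and Evc2 and Ulk3 in 3 each. With wild-type library 1 alone none was called, and the log2 fold changes were 0.70 for Arrb2, 0.58 for Grk2, 0.71 for Iqce, 0.50 for Ulk3, 0.27 for Evc2 and 0.22 for Evc. With library totals as the scaling, Arrb2 and Grk2 were called and Evc, Evc2, Iqce and Ulk3 were not (edgeR, adjusted p of 0.063 to 0.156). With the receptor-gene covariate none of the 6 was called, and Evc was at 0.054, Evc2 at 0.14, Grk2 at 0.32, Ulk3 at 0.40, Arrb2 at 0.50 and Iqce at 0.61. Beside these genes, the summed marrow and blood markers were also higher in every Tnc-/- library (2820 to 5072 CPM against 1108 to 2493 CPM), with 3 of 7 tested called higher, and their part in the result was not tested.

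The 2 lower genes of this group, the kinase Stk36 (-2.39, SE 0.72; edgeR, adjusted p = 0.0379) and the ciliary transport gene Ift88 (-1.25, SE 0.38; edgeR, adjusted p = 0.0387), were highest in wild-type libraries 2 and 3. In wild type Stk36 was at 1.77, 26.8 and 20.4 CPM, and with library 1 alone its log2 fold change was 0.81. Of 11 inhibitory genes 1 was called, lower, where 18.7% of all tested genes were. This was Tulp3, a ciliary transport adaptor, at 33.9, 70.8 and 48.8 CPM in wild type and 19.3 to 32.2 CPM in Tnc-/- (log2 fold change -0.99, SE 0.26; edgeR, adjusted p = 0.023). With wild-type library 1 alone Tulp3 was at -0.41 and with the covariate at -0.15, not called in either (edgeR, adjusted p = 0.311 and 0.853). Of the others, Gpr161, a ciliary receptor that restrains the pathway, was at 4.45 to 4.98 CPM in wild type and 6.18 to 12.6 CPM in Tnc-/-, without overlap, and Kif7, a ciliary kinesin, at 4.98 to 8.48 CPM and 5.74 to 17.0 CPM. Their log2 fold changes of 0.82 (SE 0.36) and 0.80 (SE 0.43) were above those of the called genes Evc, Evc2, Iqce and Ulk3 and below those of Arrb2 and Grk2, and were not called (edgeR, adjusted p of 0.117 and 0.19). Without wild-type library 1 both were called (edgeR, adjusted p of 0.0455 and 0.0195), as were 14113 of the 21989 genes tested in that fit. Sufu, the main cytoplasmic inhibitor of Gli proteins, was at 26.7 to 37.5 CPM in wild type and 31.9 to 42.6 CPM in Tnc-/- and was not called (0.20, SE 0.17; edgeR, adjusted p = 0.388).

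Of 10 tested target genes other than Gli1, Ptch1 and Hhip, 1 was called, lower, beside the 18.7% of all tested genes. Foxf1, a mesenchymal transcription factor, fell from 1.83, 5.78 and 2.43 CPM to between 0.390 and 1.31 CPM (log2 fold change -1.99, SE 0.65; edgeR, adjusted p = 0.0483), on few counts and inside the span of Gm20388, and with wild-type library 1 alone it was at -1.13 and not called (edgeR, adjusted p = 0.333). The span of Gm20388 also covers the muscle gene Acta1, which had 1504785 counts over the 7 libraries, so lying there did not by itself remove counts. The cell cycle targets Ccnd1 (0.28) and Ccnd2 (-0.14) and the chondrocyte regulator Pthlh (-0.33) were not called. Bcl2, an inhibitor of cell death, was at 13.1, 34.3 and 34.4 CPM in wild type and 12.98 to 15.3 CPM in Tnc-/-, with wild-type library 1 among the Tnc-/- values. Its log2 fold change of -0.92 (SE 0.31) was just short of the threshold (edgeR, adjusted p = 0.0547), and with wild-type library 1 alone it was 0.13. The median of this group was -0.079.

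**Figure D5:**
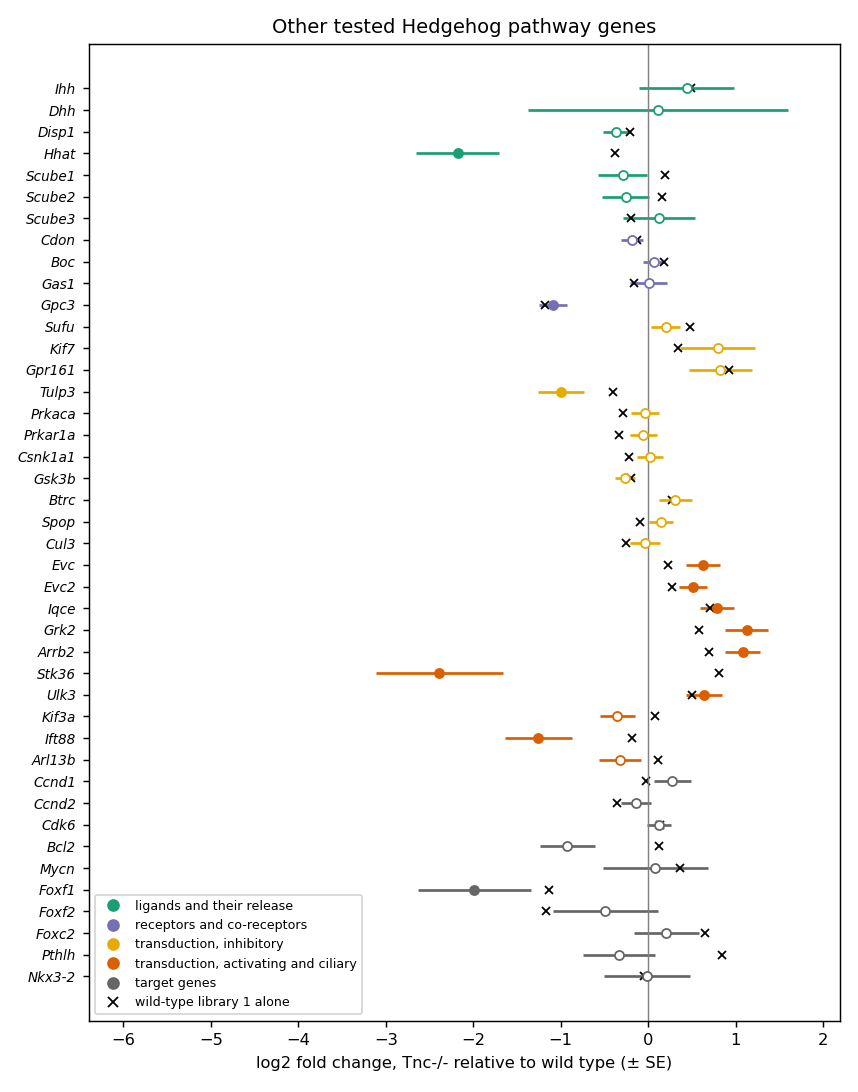
Log2 fold change (horizontal axis, ± SE) of other tested Hedgehog pathway genes, coloured by role, filled where the adjusted p was under 0.05; crosses give the value with wild-type library 1 alone, and that of Dhh, which was at 0 there, lies beyond the axis. Lrp2 is left out of the plot for its near absence in Tnc-/-. Crosses for Hhat, Stk36 and Ift88 lie far to the right of the filled points, while that of Gpc3, at -1.18, lies beside it.

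For the place of these genes in the joint, a list of enthesis and tendon genes was set beside them. Of its 14 genes 11 were tested and 2 were called, both lower, a share near the 18.7% of all tested genes called lower. They were the tendon transcription factor Mkx (-0.92, SE 0.28; edgeR, adjusted p = 0.038) and the growth factor Bmp4 (-0.95, SE 0.29; edgeR, adjusted p = 0.0401). Mkx was at 9.88, 12.7 and 13.1 CPM in wild type and 5.13 to 6.998 CPM in Tnc-/-. Bmp4 was at 13.6, 22.99 and 29.6 CPM in wild type and 13.3, 12.2, 11.98 and 8.26 CPM in Tnc-/-, so wild-type library 1 lay beside Tnc-/- library 1 and libraries 2 and 3 were far above. The tendon gene Tnmd was at 247 and 248 CPM on average in wild type and Tnc-/-, and Comp, Prg4, Acan and Sox9 were expressed in all libraries. Scx, Col10a1 and Chad were listed at 0 in all 7 libraries, and each lies wholly inside another gene, so the markers of tendon progenitors and of hypertrophic cartilage could not be read.

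Marker sums did not overlap between the genotypes for muscle and for marrow and blood, and overlapped for the other cell types. The summed level of the 8 skeletal muscle genes was 22171 to 29312 CPM in wild type and 30782 to 46281 CPM in Tnc-/-, and 1 of 8 was called higher, where 10.3% of all tested genes were. That of the 8 marrow and blood genes was 1108 to 2493 CPM and 2820 to 5072 CPM, with 3 of 7 tested genes called higher and Alas2, inside another gene, at 0. Their part in the differences of any gene named here was not tested. The sums overlapped for the 10 chondrocyte genes (668 to 1133 CPM against 814 to 1624 CPM), the 7 osteoblast genes (8702 to 14601 CPM against 10353 to 19355 CPM) and the 6 Schwann cell genes (244 to 288 CPM against 286 to 301 CPM). The 8 epidermis and hair follicle genes summed to 2.36 to 27.8 CPM and 3.22 to 4.62 CPM, with Krt15 and Krt17 at 0 in every library and Krt5, Krt14 and Krt1 at most 0.698 CPM in any. The wild-type sum came from Dsp, at 27.1 and 15.1 CPM in wild-type libraries 2 and 3 and 0.644 CPM in library 1. The 5 endothelial genes summed to 501 to 606 CPM and 509 to 571 CPM, and the 4 adipocyte genes to 98.2 to 155 CPM and 118 to 245 CPM. In whole joints, fewer cells of a type and less RNA per cell cannot be told apart.

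The genes whose profile over the 7 libraries was most like that of each gene were found by the mean absolute difference of centred log2 CPM. For Gli3 they were Cryl1 (0.069 log2 units) and Cdkl3 (0.0714), which were high in wild-type libraries 2 and 3 in the same way and were also called lower. For Ptch1 they were Qtrt2 (0.062) and Colec12 (0.0699), the latter called lower by 0.50 log2 units (edgeR, adjusted p = 0.0249). For Smo they were Anpep (0.0483) and Efs (0.049), for Gli2 Ier3 (0.0875), and for Gli1 Hipk4 (0.0968) and Tchp (0.135). Hhip had the least close neighbours, Ccdc146 (0.155) and Robo3 (0.157). None of these 11 genes is in the pathway list.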

How the data were processed

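RNA from 7 whole shoulder joints was sequenced. The deposited values are counts per gene and library, made by the authors; the submitters' processing notes name FastQC 0.11.9, HISAT2 2.2.1, HTSeq 2.0.2, DESeq2 1.38.3 and the GRCm39 build, without roles. Strand setting and annotation release are not given in the sources used here. The Tnc-/- files hold rows that name no gene, with 30.1 to 32.7% of their reads, and these were left out.

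Genes were filtered with filterByExpr, scaled with TMM and tested with the quasi-likelihood F test of edgeR 4.0.16 (R 4.3.3), with Benjamini-Hochberg adjustment and a threshold of 0.05. The standard error is the log2 fold change divided by the root of F. A pseudocount of 0.1 CPM was used for log2 levels. Alternatives used DESeq2 1.42.0, limma 3.58.1, other scalings and filters, each library left out, wild-type library 1 alone, and the log2 receptor-gene sum as covariate. Spans and exon lengths came from GENCODE M21 (GRCm38), used for lengths and overlaps between genes, with none of its coordinates printed, and promoters from RefSeq (GRCm38.p6), matched by symbol for 5 of 6 genes. Members and gene lists were chosen with earlier results of these data known. The genes named by rule are the 6, every called pathway gene, the ligands Shh, Ihh and Dhh, and the 2 nearest profiles of each of the 6; some genes that the rule names are not reported here. Any other gene named (such as Cdon, Boc, Gas1, Sufu, Gpr161, Kif7, Ccnd1, Ccnd2, Pthlh, Bcl2, the cell type markers and genes overlapping Gli1) was chosen after its values were seen.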

Additional observations from a re-analysis of the deposited data

Results flagged for a closer look

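In the 4 Tnc-/- libraries, 51 levels were searched for a library far from the others, where chance alone flags about 1 group in 20, so the 2 found are no more than chance gives. Prkar1a, a regulatory subunit of protein kinase A, was at 260.33 CPM in Tnc-/- library 4 and at 242.68 to 244.84 CPM in the other 3. Foxf2, a mesenchymal transcription factor, was at 1.0461 CPM in the same library and at 0.669 to 0.728 CPM in the others, on 12 to 20 counts per library.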

How the results depend on the processing

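Of 19 alternatives, Gli1 kept its direction and stayed uncalled in 19, Gli2 in 18, Ptch1 in 13 and Smo in 15. Gli3 kept its call in 8 and Hhip in 9. With DESeq2 and Bonferroni adjustment, Gli3 was -1.24 and Hhip -1.12, with 2016 genes and 3 other pathway genes called. With limma voom they were -1.03 and -1.07, with 973 and 3. With wild-type library 1 alone, Gli3 was -0.046, Hhip -0.82, Gli2 1.01 (now called) and Smo -0.074, with 825 and 1. With the covariate, Gli3 turned to 0.43 and Smo to -0.23, Hhip was -0.71, and 397 and 1 were called. Ptch1 was called with DESeq2 (-0.48; 9423 genes called), library totals (-0.69), DESeq2 size factors in edgeR (-0.49), upper-quartile factors (-0.51), at least 10 counts in every library (-0.53) and TMM on genes spanning up to 30 kb (-0.70). Smo turned to -0.069 with library totals and -0.07 with that TMM; lower genes made up 82.7% and 82% of calls there, beside 64.5% in the reported fit, 27.3% with limma voom and 43.2% with wild-type library 1 alone. Leaving out 1 library gave Gli3 -1.47 to -0.79, Hhip -1.35 to -0.96, Ptch1 -0.52 to -0.27, Gli1 0.27 to 0.82, Gli2 0.18 to 0.51, Smo 0.054 to 0.40 (lowest without wild-type library 2, highest without library 1), 2229 to 14113 genes called (14113 and 21 other pathway genes without wild-type library 1, 2229 and 4 without wild-type library 3, and 2554 to 3086 and 5 to 6 without any other). The causes were not tested.

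Replicate numbers did not pair the samples, the correlations of same-numbered deviations being -0.00531, 0.102 and -0.00549. With the replicate block, Gli3 was -1.12 and Hhip -1.07, neither called, with 1713 genes called, 1642 of them shared, and 4 other pathway genes. Low counts limit Gli1, with 44 to 193 per library.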
